A study of Mus musculus with 2 samples.

Results

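The complement system was followed through 7 of its genes, C1qa, C1qb, C1qc, C3, Cfp, C3ar1 and C5ar1, in the immune cells of the mouse dorsal root ganglion (DRG). They were picked by name from the 16819 gene symbols of the deposited count matrix, and all 7 were detected. In these ganglia the genes were spread over different cells. C3 was found in neutrophils and monocytes (mean 124 and 195 CPM, UMIs per 1000000 UMIs) and was near 0 in macrophages (6.15 CPM). C3ar1 was a macrophage gene, C5ar1 was shared by macrophages and neutrophils, and Cfp was highest in dendritic cells (DCs) with Cd209a and without Xcr1. C1qa, C1qb and C1qc themselves defined the macrophages, so only their ratios and levels within macrophages are given.

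Complement is a cascade of plasma and tissue proteins that tags microbes, debris and synapses for removal. C1q, built from the A, B and C chains, starts the classical pathway, C3 is the central component on which all pathways converge, and properdin (Cfp) stabilizes the convertase of the alternative pathway. Cleavage of C3 and C5 releases the anaphylatoxins C3a and C5a, which act on myeloid cells through the G protein-coupled receptors C3ar1 and C5ar1. Tissue macrophages are a well-known source of C1q, whereas most plasma C3 comes from the liver.

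CD45+ DAPI- cells were sorted from enzymatically digested DRGs of naive wild-type (WT) BALB/cAnNRj mice, perfused with PBS, whose age is given only as a lower limit for all mice of the study. The paper states the spinal levels of pooled ganglia for flow cytometry and gives none for the sequenced cells. Each animal was marked with a hashtag antibody, and all cells were run in a single lane of the 10x 3′ v3 assay. This assay counts unique molecular identifiers (UMIs) at the 3′ end of polyA RNA. There was no treatment or mutant, so the comparisons are between cell classes, cell states and sexes. The 2668 deposited cells carried the hashtags of 3 male mice, with 481, 772 and 1415 cells and 4239463, 5656097 and 13508078 UMIs in mouse 1, 2 and 3. A further 1073 cells with the hashtags of 3 female mice came from the larger deposited matrix of 4395 barcodes and served as a second set of animals. Values are of male mice unless stated.

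Cells were classed by fixed genes. Macrophages had at least 0.5% of their UMIs in the C1q genes (1442 cells), neutrophils at least 5% in S100a8 and S100a9 (272 cells), B cells at least 4 UMIs of Cd79a and Cd79b (161 cells) and T cells at least 2 UMIs of Cd3d, Cd3e and Cd3g (76 cells). Of cells outside these gates, 98 with at least 2 UMIs of Flt3, Xcr1 or Cd209a and 10 of MHC class II were taken as DCs, and 104 with at least 4 UMIs of Ly6c2 and Plac8 and 1 of Csf1r as monocytes. A further 188 cells stayed ungated and 327 passed several gates. Markers that were not in the gate of their own class were checked. They were highest in the class of their name for 6 of 6 macrophage genes, 5 of 5 neutrophil genes, 4 of 4 B cell and 4 of 4 T cell genes, 4 of 5 DC genes and 3 of 4 monocyte genes. Most cells with several gates (283) were neutrophils by S100a8 and S100a9 that entered the T gate through Cd3d, with 0 UMIs of Cd3e, Trac and Lck. They held many of the neutrophils rich in granule genes, so the results of the members in neutrophils are also given with each cell in the first gate it passed (macrophage, neutrophil, B, T; 556 neutrophils), a rule chosen after the values were seen.

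Levels are given as CPM, the UMIs of a gene per 1000000 UMIs of a class in a mouse. Log2 fold changes come from edgeR's quasi-likelihood test on these sums for all genes, with Benjamini-Hochberg adjusted p-values and the threshold at 0.05, and are given ± standard error (SE). The test rescales each sum by TMM factors, which were 0.623 to 0.695 in neutrophils, 0.851 to 0.904 in macrophages and 1.15 to 1.17 in monocytes, so that fitted folds differ from the ratios of CPM. The p-values rest on the spread between 3 mice of 1 lane, pooled over all classes or states of a fit. All classes shared 1 fit, in which the sums of a mouse were taken as independent. Intervals on counts or shares of cells cover counting error only.

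The C1q genes lie side by side on the minus strand of chromosome 4 (GRCm38), with C1qb at chr4:136880129-136886187, C1qc at chr4:136889804-136893065 and C1qa at chr4:136895917-136898803. The cluster spans 18675 bases, with gaps of 3616 and 2851 bases between neighbours. C3 lies at chr17:57203970-57228136, C3ar1 at chr6:122847138-122856161, C5ar1 at chr7:16246743-16259540 and Cfp at chrX:20925454-20931555, all on the minus strand. The 250 bases before the start sites of C1qb, C1qc and C3 (RefSeq, GRCm38.p6) are shown, 5′ to 3′ on the minus strand. The promoter set held no entry for C1qa. The RefSeq start of C1qc lies inside the gene as placed above, so part of its stretch falls within the gene. Capitals mark the letters GAGGAA (core of the PU.1 site), TGCTGA (part of the MAF site) or TTGCNNAA (core of the C/EBP site), on either strand.
C1qb, chr4:136886201-136886450: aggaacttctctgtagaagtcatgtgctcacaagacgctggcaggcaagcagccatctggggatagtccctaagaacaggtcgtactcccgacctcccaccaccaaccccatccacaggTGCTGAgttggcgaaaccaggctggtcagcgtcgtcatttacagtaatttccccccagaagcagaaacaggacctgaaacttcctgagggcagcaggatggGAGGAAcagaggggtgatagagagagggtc
C1qc, chr4:136892915-136893164: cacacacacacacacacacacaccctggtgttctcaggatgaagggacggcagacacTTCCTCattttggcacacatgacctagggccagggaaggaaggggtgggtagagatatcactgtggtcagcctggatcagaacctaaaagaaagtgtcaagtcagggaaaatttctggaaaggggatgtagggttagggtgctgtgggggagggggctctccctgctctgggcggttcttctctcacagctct
C3, chr17:57228137-57228386: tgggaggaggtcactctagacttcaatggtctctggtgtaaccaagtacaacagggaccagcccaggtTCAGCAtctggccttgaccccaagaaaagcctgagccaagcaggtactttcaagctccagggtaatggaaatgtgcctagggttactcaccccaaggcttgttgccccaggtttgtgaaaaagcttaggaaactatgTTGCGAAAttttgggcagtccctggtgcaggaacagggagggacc
C1qb held GAGGAA 30 bases and TGCTGA 131 bases before the start, C1qc held GAGGAA 193 bases before it, and C3 held TTGCNNAA 45 bases and TGCTGA 182 bases before it. The other members searched, whose stretches are not shown, held no GAGGAA and no TTGCNNAA. Of these, C3ar1 held TGCTGA 144 bases and C5ar1 17 bases before the start, and Cfp held none of these letters. The RefSeq starts of C3ar1 and C5ar1 also lie inside the genes as placed above, and the match of C5ar1 falls within its gene. Among 32851 promoters of this length, GAGGAA was in 23.3%, TGCTGA in 16.1% and TTGCNNAA in 9.56%, so that a match is common and is given only as a description.

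The 3 chains of C1q kept nearly fixed proportions in macrophages. C1qa was at 7826, 6839 and 8383 CPM in mouse 1, 2 and 3, C1qb at 5353, 4647 and 6017, and C1qc at 3945, 3342 and 4313. Mouse 3 was highest and mouse 2 lowest for each chain. Of all C1q UMIs, C1qa made up 45.7, 46.1 and 44.8% (45.5% ± 0.679, SD, n = 3), C1qb 31.6% and C1qc 22.9% ± 0.294. There were 1.44 ± 0.0428 C1qa UMIs per C1qb UMI. These are shares of 3′ UMIs and not of protein chains. Single macrophages held a median of 63, 44 and 32 UMIs of C1qa, C1qb and C1qc, which were detected in 1442, 1441 and 1440 of the 1442 cells. The summed C1q share of a cell ran from 0.529 to 3.78% of its UMIs, with a median of 1.64%. The gate at 0.5% cut through few cells, since 14 cells lay at 0.25 to 0.5%, 19 at 0.5 to 0.75% and 1055 under 0.05%.

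**Figure D1:**
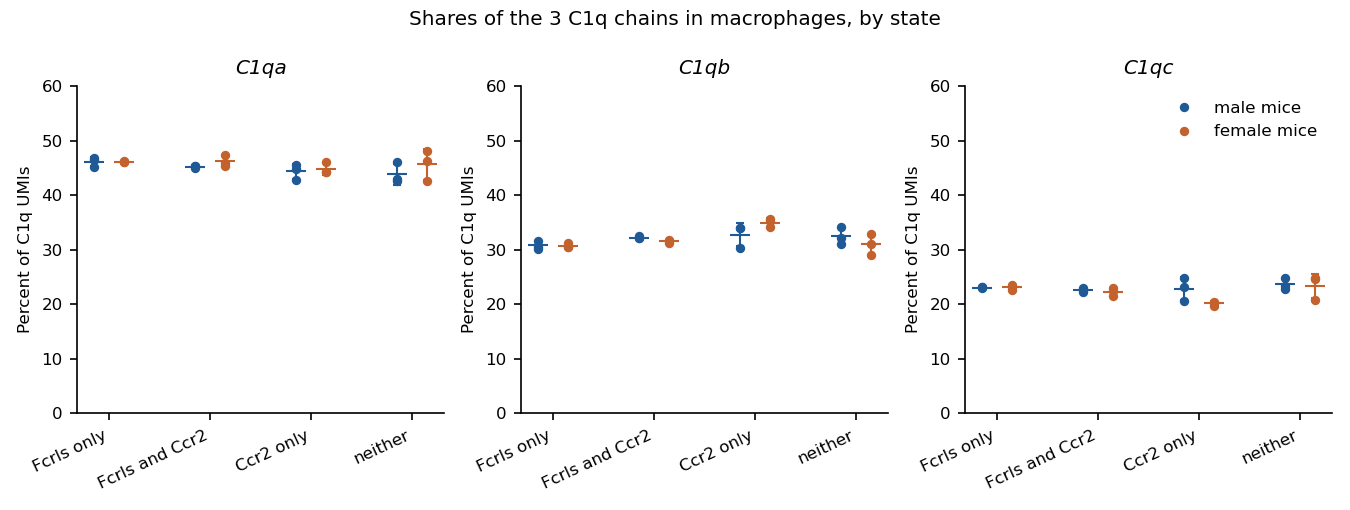
Percent of all C1q UMIs of macrophages taken by C1qa, C1qb and C1qc, in 4 macrophage states (x axis) of male and female mice. Points are mice, dashes the mean and bars the SD of 3 mice; C1qa stays near 46% in Fcrls-only macrophages of both sexes (46.1%), and C1qb is higher in Ccr2-only macrophages of female mice (35.0%) than in Fcrls-only ones (30.8%).

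Fcrls, an Fc receptor-like gene, and Ccr2, the chemokine receptor of monocytes, were leading genes of the main macrophage clusters of the study. Here 655 macrophages had UMIs of Fcrls and not Ccr2 (Fcrls-only), 154 of Ccr2 and not Fcrls (Ccr2-only), 567 of both and 66 of neither. C1qa was at 8420, 7246 and 8757 CPM in Fcrls-only and at 5701, 5931 and 7084 CPM in Ccr2-only macrophages, without overlap. The other chains overlapped, with C1qb at 4678 to 6145 and 3866 to 5628 CPM and C1qc at 3578 to 4493 and 2681 to 3832 CPM, although each was higher in Fcrls-only macrophages in all 3 mice. In female mice C1qa and C1qc were higher in Fcrls-only macrophages without overlap at the 0.5% gate. C1qb overlapped and had a slightly lower mean in Fcrls-only macrophages (4771 against 4893 CPM). The result for C1qa in female mice depended on the gate. At a macrophage gate of 1%, their summed C1q share was 1.554 to 1.604% in Fcrls-only and 1.459 to 1.607% in Ccr2-only macrophages. C1qa of female mice then overlapped too, whereas their C1qc and the C1qa of male mice did not. As the C1q genes set the gate, no test is given. The share of all genes without overlap between these sums is not given either, so the overlaps are a description only. The share of C1qb was 30.6, 30.2 and 31.7% in Fcrls-only and 30.3, 33.9 and 34.0% in Ccr2-only macrophages, which overlapped. In female mice it was 30.6, 31.2 and 30.5% in Fcrls-only and 35.3, 34.1 and 35.5% in Ccr2-only macrophages, which did not overlap. Ccr2-only macrophages of female mice (18, 17 and 19 cells) held 1.73, 1.73 and 1.75 C1qb UMIs per C1qc UMI. Their Fcrls-only macrophages held 1.32, 1.38 and 1.30. In male mice this ratio overlapped, with 1.22, 1.65 and 1.47 in Ccr2-only and 1.33, 1.31 and 1.37 in Fcrls-only macrophages, and was reversed in mouse 1.

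C3 RNA came mainly from neutrophils and monocytes. Its level was 202, 198 and 186 CPM in monocytes, 127, 131 and 114 CPM in neutrophils and 4.25, 5.52 and 8.66 CPM in macrophages. Every monocyte value lay above every neutrophil value, and both far above macrophages. In female mice, with 8, 5 and 6 monocytes, neutrophils and monocytes overlapped. Their pooled ratio of neutrophils to monocytes was 0.992 (counting interval 0.657 to 1.51). Macrophages held 55.4% of all UMIs in the matrix and 8.42% of the 1105 C3 UMIs, whereas monocytes held 5.74% of all UMIs and 23.3% of C3. Neutrophils of 1 gate held 6.90% of all UMIs and 17.6% of C3, and cells with several gates 15.4 and 44.3%. Of the 490 C3 UMIs in cells with several gates, 482 were in neutrophils that also passed the T gate. With each cell in its first gate, neutrophils held 678 of the 1105 C3 UMIs. On the log2 scale C3 was lower in macrophages than in neutrophils by -4.53 ± 0.22 (adjusted p = 4.00e-13) and than in monocytes by -4.40 ± 0.22 (adjusted p = 1.44e-12). Differences between these classes were widespread, since 58.9% of 6101 genes tested passed the threshold between macrophages and neutrophils and 36.2% between macrophages and monocytes. Between neutrophils and monocytes the fitted difference in C3 was 0.13 (95% interval -0.28 to 0.54, adjusted p = 0.618), a comparison in which 43.5% of genes passed. With each cell in its first gate, C3 in neutrophils was 170, 131 and 133 CPM, and the fitted difference from monocytes was 0.60 (adjusted p = 0.0114). Under both rules monocytes of male mice thus lay above neutrophils in CPM and below them on the fitted scale, and the call depended on the gates. Macrophages were then lower than neutrophils by -5.00 (adjusted p = 8.04e-14).

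C3 was detected in 67.9% ± 5.90 of monocytes and 26.7% ± 2.49 of neutrophils (SD, n = 3 mice), whose median depths were 11301 and 3635.5 UMIs. Thinned to 2000 UMIs a cell, with cells under 2000 UMIs left out, the shares were 28.4 and 11.1%. The thinned shares thus rest on the deeper cells of a class. Among neutrophils those low in granule genes were shallower (median 3183 against 18136 UMIs). With each cell in its first gate and all UMIs kept, C3 was detected in 263 of 556 neutrophils. C3 had 0 UMIs in 76 T cells (median depth 4757.5 UMIs), which allows a share of up to 3.95%, and 0 in 98 DCs (13990 UMIs), which allows up to 3.06%. These limits are on cells with a UMI at that depth, not on cells that express the gene. With 3 counts taken in place of 0, macrophages held 3.28-fold more C3 than DCs (adjusted p = 8.67e-04 in edgeR's test, where 31.7% of genes passed). Against T cells it was 1.04-fold more (adjusted p = 0.0176 in edgeR's test, where 43.7% passed). These folds leave out the counting error of the 93 macrophage UMIs, so they are no lower bounds. B cells held 1 UMI of C3, 5.69-fold below macrophages with a counting interval of 0.996 to 227 (adjusted p = 0.00814; 56.5% passed). The difference from T cells did not pass with DESeq2 (adjusted p = 0.0543) or without mouse 1 (0.0793) or mouse 3 (0.137). In female mice, with 22 C3 UMIs in macrophages, 1 in DCs and 0 in B and T cells, none of these 3 differences passed (adjusted p = 0.252, 0.0595 and 0.216).

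The few C3 UMIs of macrophages were thinly spread, with 93 UMIs in 77 of 1442 cells and at most 4 in a cell. The 6 fibroblast markers checked summed to 40.7, 144 and 119 CPM in macrophages, all 6 being detected, against 2.39 to 21.3 CPM in neutrophils and 5.95 to 9.90 CPM in monocytes. Of the 77 macrophages with C3, 40 also held a fibroblast UMI, as did 500 of all 1442 macrophages. Among ungated cells, 11 with at least 10 fibroblast UMIs held 14 of 70 C3 UMIs. The part of fibroblast RNA in the macrophage level was not tested. The neutrophil markers summed to 85.7 to 124 CPM in monocytes and to 11992 to 18698 CPM in neutrophils, and all 5 were detected in monocytes.

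**Figure D2:**
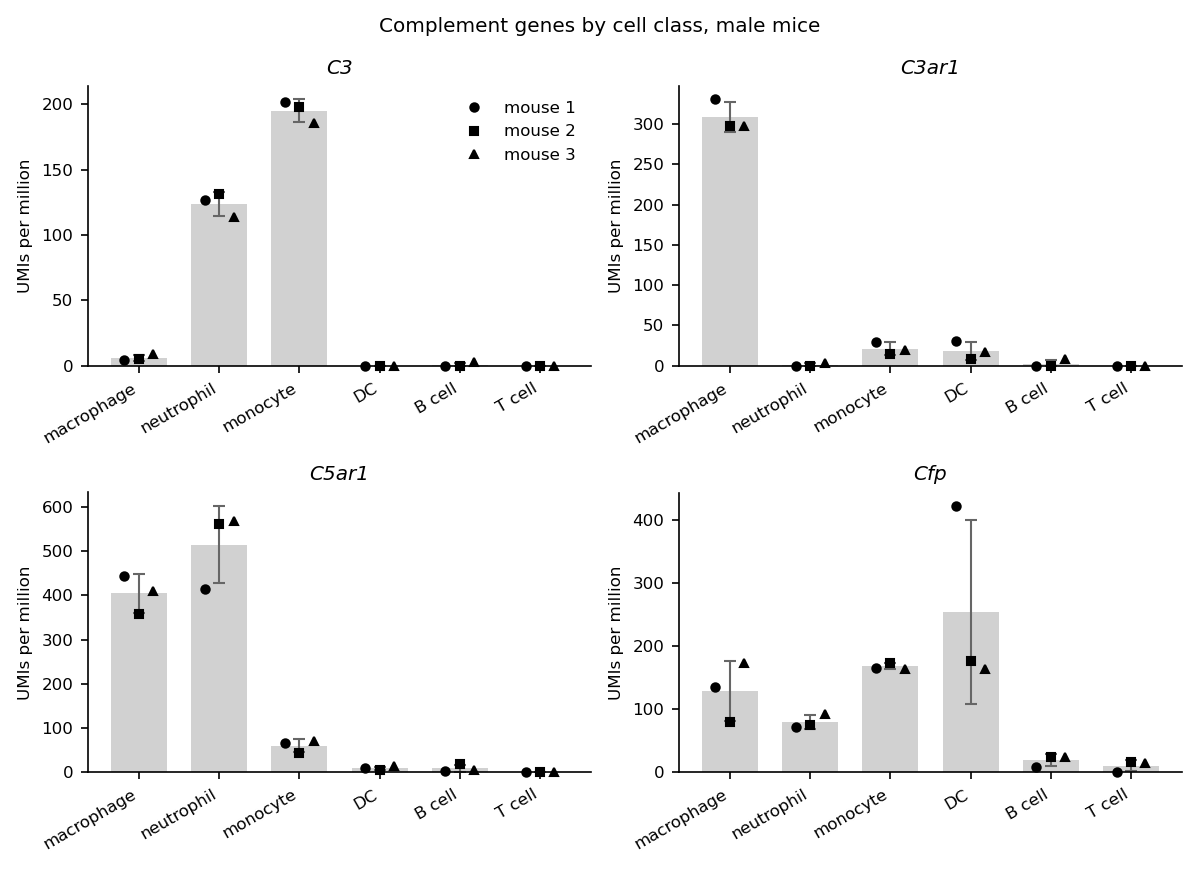
CPM of C3, C3ar1, C5ar1 and Cfp (y axes, linear, from 0) in 6 cell classes of the male mice. Points are mice 1, 2 and 3, grey bars their mean and whiskers the SD, cut at 0; C3 is high in monocytes and neutrophils, C3ar1 in macrophages (297 to 330), C5ar1 in macrophages and neutrophils, and Cfp in all 4 myeloid classes, with mouse 1 apart in DCs (422).

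Properdin transcripts were found in all 4 myeloid classes. Cfp was at 422, 176 and 163 CPM in DCs, 166, 173 and 164 in monocytes, 135, 79.1 and 173 in macrophages and 71.7, 74.6 and 93.0 in neutrophils. Mouse 1 stood apart in DCs, and mouse 2 was low in macrophages. B cells had 7.88, 24.7 and 23.9 CPM and T cells 0, 16.3 and 14.3 CPM. Cfp was higher in macrophages than in B cells by 3.33 ± 0.46 (adjusted p = 1.24e-06) and than in T cells by 4.21 ± 0.66 (adjusted p = 1.29e-05) on the log2 scale. It was lower in macrophages than in DCs by -0.80 ± 0.27 (adjusted p = 0.0261), and this call was lost with DESeq2 (adjusted p = 0.0615), without mouse 1 (-0.34, 0.392) and without mouse 2 (-0.71, 0.134). In female mice, with 383, 227 and 264 CPM in DCs and 145, 59.9 and 61.7 in macrophages, it was also lower in macrophages (-1.62, adjusted p = 7.74e-05). Against monocytes (0.03, 95% interval -0.56 to 0.62) and neutrophils (0.25, -0.37 to 0.88) the difference in macrophages did not pass. Under the first-gate rule neutrophils had 70.6, 109 and 98.5 CPM, and the difference was -0.16. Of cells, 63.7% of DCs, 62.2% of monocytes, 43.2% of macrophages and 32.4% of neutrophils had a Cfp UMI, against 3.68% of T cells. Median depths of these 4 myeloid classes were 13990, 11301, 8581.5 and 3635.5 UMIs. With each cell in its first gate, 261 of 556 neutrophils had a Cfp UMI, beside 645 of 1442 macrophages that passed 1 gate. The order of macrophages and neutrophils in this share thus changed with the gates, but the share was not matched for depth. Cells with several gates, mostly neutrophils, had a median depth of 10152 UMIs. In pooled CPM, macrophages that passed 1 gate lay 1.51-fold above first-gate neutrophils (counting interval 1.36 to 1.68), and they were higher in 2 of 3 mice. Neutrophils were lower than DCs (-1.05, adjusted p = 0.00772; 51.1% of genes passed), and with each cell in its first gate this did not pass (-0.68, adjusted p = 0.0537).

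Within DCs, Cfp was higher in cells with Cd209a alone, a C-type lectin of conventional type 2 and monocyte-derived DCs, than in cells with Xcr1 alone, the chemokine receptor of cross-presenting DCs. The 49 DCs with Cd209a and without Xcr1 had 578, 335 and 368 CPM, and the 38 with Xcr1 and without Cd209a had 28.0, 16.0 and 19.0 CPM. These did not overlap, and the Xcr1 values were near those of B cells. Cfp was detected in 45 of 49 and in 9 of 38 cells, at median depths of 13351 and 14442.5 UMIs. It was also seen in 3 of 7 male cells with both genes and in 2 of 4 with Flt3 and neither of them. In female mice, 41 cells with Cd209a had 550, 356 and 374 CPM and 18 cells with Xcr1 had 11.8, 10.2 and 0 CPM. The split was chosen after the male values were seen and some sums held under 10 cells, so it was not tested. The share of Cd209a cells differed between animals, with 15 against 4 cells of both kinds in male mouse 1 and 21 against 24 in mouse 3. The 4 monocyte markers checked summed to 1041, 546 and 681 CPM in DCs of mouse 1, 2 and 3, all 4 being detected, and to 2371 to 2961 CPM in monocytes, and their part in Cfp was not tested.

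**Figure D3:**
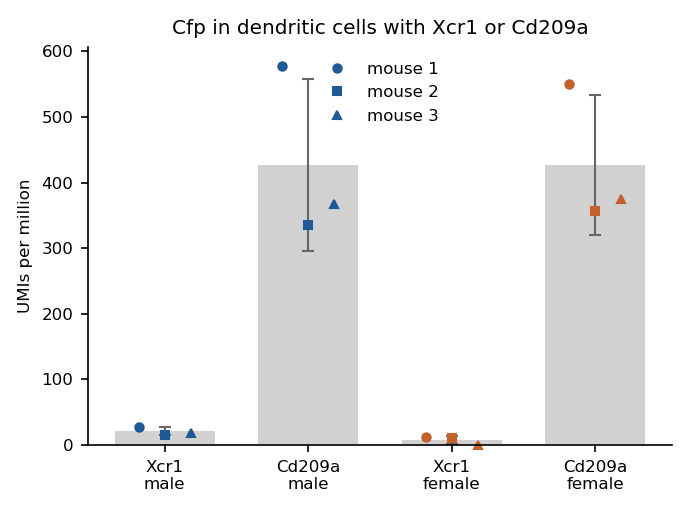
CPM of Cfp (y axis, linear, from 0) in DCs with Xcr1 and without Cd209a and in DCs with Cd209a and without Xcr1, in male and female mice. Points are mice, bars the mean and whiskers the SD; every Cd209a value (335 to 578 in males) lies above every Xcr1 value (16.0 to 28.0).

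The receptor for C3a was nearly confined to macrophages among the 6 classes. C3ar1 was at 330, 298 and 297 CPM in macrophages (308 ± 19.1, SD, n = 3), and 94.5% of its 4132 UMIs were in macrophages. Monocytes had 29.8, 14.9 and 19.0 CPM and DCs 30.3, 8.40 and 17.5 CPM, which overlapped. Neutrophils held 3 UMIs (0, 0 and 3.28 CPM), B cells 3 UMIs and T cells 0. C3ar1 was higher in macrophages than in monocytes by 4.28 ± 0.29 (adjusted p = 5.69e-11) and than in DCs by 4.19 ± 0.29 (adjusted p = 8.56e-11) on the log2 scale. The ratio of macrophages to neutrophils was 162, with a counting interval of 55.5 to 787 (adjusted p = 3.84e-12), and to B cells 79.6 (27.2 to 386). Under the first-gate rule neutrophils held 10 UMIs, and macrophages were higher by 6.46 ± 0.31 (adjusted p = 6.94e-14). Against T cells of male mice macrophages were at least 43.8-fold higher. In female mice T cells held 3 C3ar1 UMIs, and the ratio was 25.5 (counting interval 8.70 to 124). Monocytes and DCs, the classes next in order, differed by -0.09 (95% interval -1.03 to 0.85, adjusted p = 0.939), a comparison in which 21.4% of genes passed.

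A C3ar1 UMI was seen in 87.3% ± 2.10 of macrophages (median depth 8581.5 UMIs), in 13.4% of monocytes, 11.6% of DCs and 0.447% of neutrophils, against 0 of 76 T cells. At 2000 UMIs a cell, the share in macrophages was 44.7%. In monocytes 25 of the 28 UMIs were in 10 cells, and in DCs 24 of 25. The 6 macrophage markers checked summed to 527 to 768 CPM in monocytes, with Mertk at 0, and to 140 to 255 CPM in DCs, against 2611 to 2840 CPM in macrophages. Csf1r is among these markers and is also required by the monocyte gate, which partly sets the sum in monocytes. The part of macrophage RNA in these C3ar1 levels was not tested.

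The receptor for C5a was abundant in neutrophils as well as in macrophages. C5ar1 was at 414, 561 and 569 CPM in neutrophils and at 445, 358 and 411 CPM in macrophages. The mouse lowest in neutrophils was highest in macrophages, and both groups overlapped in CPM. On the fitted scale it was lower in macrophages by -0.73 ± 0.18 (adjusted p = 0.00118), whereas the ratio of the mean CPM was 0.786. With each cell in its first gate, neutrophils had 348, 447 and 462 CPM, the fitted difference was -0.68 (adjusted p = 0.00170) and the ratio of the mean CPM was 0.965. The difference was thus smaller in CPM than on the fitted scale, which carries the TMM factors of both classes. Monocytes were lower, at 66.3, 44.6 and 70.2 CPM (macrophages higher by 3.07 ± 0.22, adjusted p = 1.87e-10), as were DCs, at 9.10, 5.60 and 13.1 CPM (5.42 ± 0.30, adjusted p = 1.63e-12). B cells were at 3.94, 18.5 and 5.31 CPM and their difference from DCs did not pass (0.84, 95% interval -0.51 to 2.19, adjusted p = 0.305; 47.3% of genes passed). T cells of male mice had 0 UMIs, so that macrophages were at least 58.1-fold higher there. In female mice T cells held 3 C5ar1 UMIs, and the ratio was 29.0 (counting interval 9.92 to 141).

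C5ar1 was detected in 91.1% ± 1.46 of neutrophils and 84.9% ± 5.75 of macrophages. At 2000 UMIs a cell, with shallower cells left out, the shares were 71.7 and 47.9%. At that depth 0.680% of DCs had a C5ar1 UMI, below the 2.59% of B cells, so the DC share is not read as expression. Of the 14 C5ar1 UMIs of DCs, 5 were in 1 cell. Most macrophages carried both receptors. UMIs of C3ar1 and C5ar1 together were seen in 79.1, 68.3 and 80.9% of macrophages of mouse 1, 2 and 3, C3ar1 alone in 11.2%, C5ar1 alone in 8.74% and neither in 3.99% (means). In female mice 70.3% had both. In neutrophils C5ar1 came alone in 90.6% and with C3ar1 in 2 of 272 cells.

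Between the macrophage states of male mice, Cfp passed the threshold in the main fit, which does not pair the sums of a mouse, whereas C5ar1 and C3ar1 did not. The call of Cfp was lost in some other settings, and C5ar1 passed with the mouse as a block. Cfp was at 187, 88.3 and 221 CPM in Fcrls-only macrophages and at 31.7, 51.4 and 73.3 CPM in Ccr2-only ones, with 116, 77.8 and 152 CPM in macrophages with both genes. The Fcrls-only values were all above the Ccr2-only values, although mouse 2 differed least. The difference was 1.38 ± 0.35 on the log2 scale (adjusted p = 0.0175), in a comparison in which 8.9% of 6279 genes passed. It did not pass without mouse 1 (1.14, adjusted p = 0.215), without mouse 3 (1.43, 0.0697) or with the states called at 2000 UMIs a cell (0.56, 0.439). In female mice Cfp was at 182, 66.3 and 82.9 CPM against 36.4, 74.6 and 7.73 CPM, overlapping and reversed in mouse 2 (1.52, adjusted p = 0.239). Macrophages with both genes lay between the other states in each male mouse for Cfp, and neither step passed, with 0.44 from Fcrls-only to both (adjusted p = 0.592; 1.54% of genes passed) and 0.94 from both to Ccr2-only (adjusted p = 0.353; 0.637% passed).

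C5ar1 was at 511, 414 and 448 CPM in Fcrls-only and 370, 257 and 318 CPM in Ccr2-only macrophages. These did not overlap, and the difference of 0.45 ± 0.15 missed the threshold (adjusted p = 0.0663) but passed with the mouse as a block (0.45, adjusted p = 0.00335). In female mice, with 423, 362 and 419 CPM against 153, 326 and 131 CPM, it passed (0.98 ± 0.22, adjusted p = 0.00805). C3ar1 was at 343, 307 and 294 CPM in Fcrls-only and 349, 317 and 263 CPM in Ccr2-only macrophages, which overlapped (-0.06, 95% interval -0.35 to 0.24, adjusted p = 0.905). C3 was too low to be tested, with 40 and 6 UMIs and a ratio of 1.48 (counting interval 0.624 to 4.28). Both receptors were seen together in 80.3% ± 6.77 of Fcrls-only and 60.2% ± 4.19 of Ccr2-only macrophages, whose median depths were 8466 and 8024.5 UMIs. Fibroblast markers summed to 58.5, 163 and 148 CPM in Fcrls-only and 31.7, 57.1 and 55.3 CPM in Ccr2-only macrophages, and macrophage markers to 2847 to 3078 and 2205 to 2396 CPM. Monocyte markers, which include Ccr2 itself, summed to 39.5 to 70.2 CPM in Fcrls-only and 656 to 683 CPM in Ccr2-only macrophages. Their part in the difference was not tested.

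**Figure D4:**
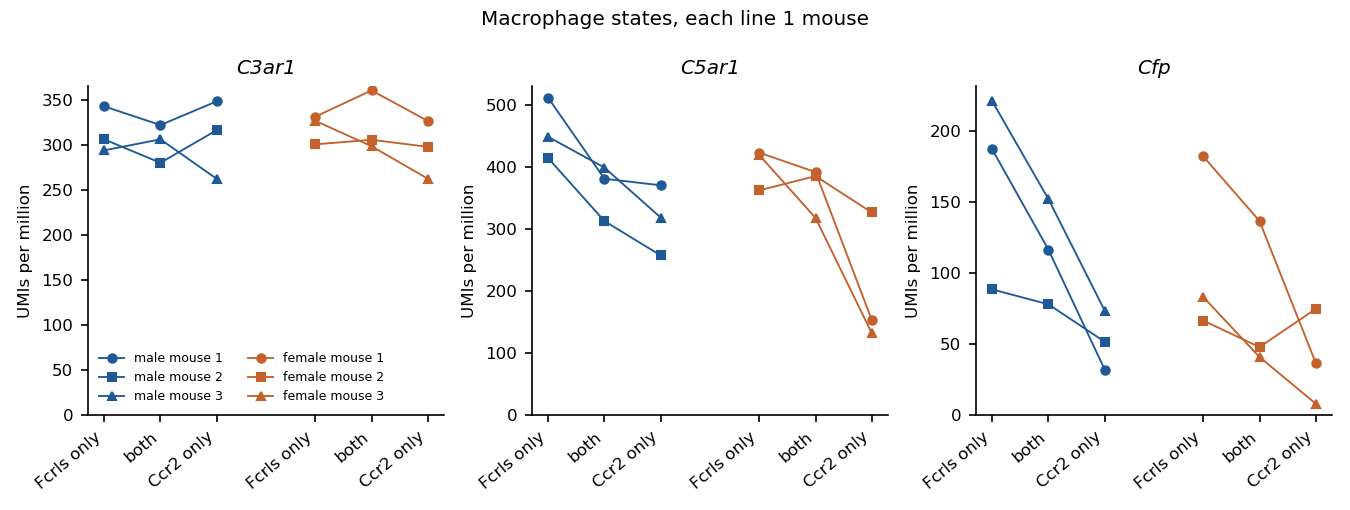
CPM of C3ar1, C5ar1 and Cfp (y axes, linear, from 0) in Fcrls-only, both and Ccr2-only macrophages; each line is 1 male or female mouse. Cfp falls from Fcrls-only to Ccr2-only in all 3 male mice (88.3 to 221 against 31.7 to 73.3) and in 2 of 3 female mice, C5ar1 in every mouse, and C3ar1 lines cross.

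C5ar1 and C3 changed in opposite directions with the granule genes of neutrophils. Camp, Ngp and Ltf encode secondary granule proteins made by immature neutrophils, and a share of 1% of UMIs split the neutrophils into 223 low and 49 high cells. C5ar1 was at 708, 987 and 872 CPM in low and 157, 203 and 188 CPM in high neutrophils. C3 was at 25.6, 70.0 and 78.5 CPM in low and 215, 183 and 158 CPM in high neutrophils. Neither gene overlapped between both kinds, in a comparison in which 62.7% of 2150 genes passed. C5ar1 was higher in low neutrophils by 1.93 ± 0.18 (adjusted p = 1.03e-07) and C3 lower by -1.82 ± 0.29 (adjusted p = 3.86e-05). With each cell in its first gate (277 low and 279 high), the differences were 1.19 (adjusted p = 8.39e-05) for C5ar1 and -1.57 (1.42e-04) for C3.

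Cfp was at 103, 117 and 122 CPM in low and 44.8, 39.3 and 56.8 CPM in high neutrophils, higher in low ones by 0.93 ± 0.28 (adjusted p = 0.00816). This call was lost with each cell in its first gate (0.24, adjusted p = 0.427) and without cells over 20000 UMIs (0.14, 0.776), whereas C5ar1 and C3 kept theirs under both. The second setting left 8 high cells in mouse 2, so its high group held only the sums of mouse 1 and mouse 3. Low and high cells differed in depth, with medians of 3183 and 18136 UMIs, and its part in the differences was not tested. Female mice had 46 low but 20 high neutrophils, and 1 mouse had the 10 high cells that a sum needed. With each cell in its first gate, female mice had 820, 789 and 509 CPM of C5ar1 in low and 296, 305 and 347 in high neutrophils (0.87 ± 0.26, adjusted p = 0.0405). C3 was at 70.0, 91.8 and 102 CPM in low and 192, 133 and 186 CPM in high cells of these mice (-1.28 ± 0.34, adjusted p = 0.0241).

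**Figure D5:**
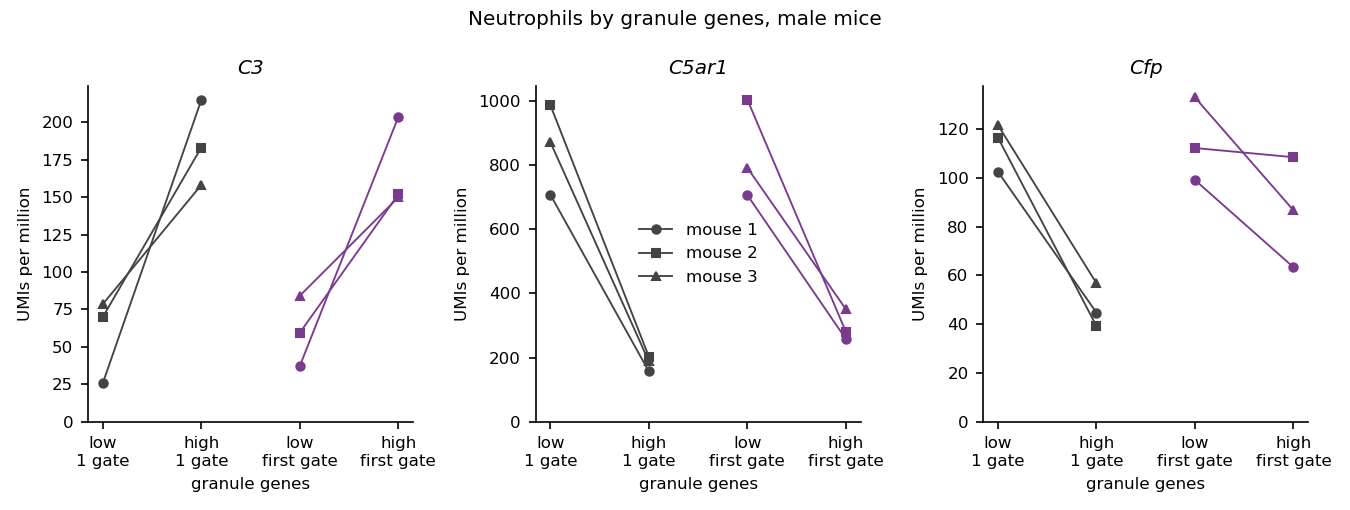
CPM of C3, C5ar1 and Cfp (y axes, linear, from 0) in neutrophils of male mice with low and high granule genes, for cells that passed 1 gate (left) and with each cell in its first gate (right). Each line is 1 mouse; C3 rises and C5ar1 falls from low to high in every mouse under both rules, while Cfp is nearly level in mouse 2 under the first-gate rule.

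Between the sexes no member passed the threshold in macrophages, a comparison in which 0.0867% of 8070 genes did. C3ar1 was at 348, 302 and 314 CPM in macrophages of female mice (female against male 0.08, 95% interval -0.15 to 0.31, unadjusted p = 0.462 in edgeR's test). C5ar1 was at 384, 362 and 358 CPM (-0.12, 95% interval -0.34 to 0.11). Cfp, an X-linked gene, was at 145, 59.9 and 61.7 CPM against 135, 79.1 and 173 CPM in males (-0.50, 95% interval -1.15 to 0.15). Both sexes overlapped for each of the 3 genes. The difference of the states between sexes was tested as an interaction, in which edgeR's quasi-likelihood test passed 0 of 6159 genes (0%), with 262 at an unadjusted p under 0.05 and 1 by DESeq2. For C5ar1 it was 0.56 (95% interval -0.04 to 1.16, unadjusted p = 0.0679 in edgeR's test), for Cfp 0.17 (-1.49 to 1.83) and for C3ar1 0.15 (-0.33 to 0.62).

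Of 43 other complement genes listed, 32 were in the matrix and the other 11 were not analysed here. Few were abundant enough to be tested, and these were mostly receptors and regulators. Against neutrophils, 4 of 9 tested genes were higher in macrophages, among them Lrp1 (a receptor that takes up complement-tagged cargo) by 4.72, Cd93 (once proposed as a C1q receptor) by 3.46 and Calr (calreticulin, which binds C1q) by 2.31. Another 3 were lower, Cd55 (decay-accelerating factor) by -2.40, Itgb2 by -2.31 and Itgam by -1.35. Itgb2 and Itgam encode the chains of complement receptor 3. Over all genes 31.7% were higher and 27.3% lower. The median of the 9 was 0.39 on the log2 scale, against 0.13 over all genes. Under the first-gate rule the same 4 were higher and the same 3 lower, with Cd55 at -4.05, and the median was 0.081 beside 0.082 over all genes. Of all 6228 genes tested under that rule, 4224 passed in either direction.

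Against monocytes 5 of 9 were higher in macrophages (among them Cd93 by 1.21, Calr by 1.19, Lrp1 by 0.74 and Cr1l by 0.73) and Itgb2 was lower by -0.85, while 19.8% of all genes were higher and 16.3% lower. Against DCs 3 were higher (among them Cd93 by 2.92 and Lrp1 by 1.36) and 2 lower, Itgb2 and Itgax, a chain of complement receptor 4 and a DC marker, by -5.45 (17.6 and 14.1% of all genes). Against B cells 6 were higher, with Lrp1 (5.62) and Itgam (4.83) among them, and Cd55 was lower by -3.91 (30.1 and 26.4% of all genes). Against T cells 5 were higher, with Lrp1 (4.66) and Itgam (4.25) among them, and Cd55 was lower by -2.69 (23.6 and 20.1% of all genes). The medians of the 9 were 0.74, 0.44, 2.52 and 0.71 against monocytes, DCs, B cells and T cells, beside 0.04, 0.07, 0.02 and -0.01 over all genes. Between Fcrls-only and Ccr2-only macrophages, 2 of 10 passed, Cd93 higher by 0.93 (adjusted p = 0.00577) and Itgb2 lower by -0.69 (adjusted p = 0.0100), beside 3.82 and 5.08% of all genes. In neutrophils low in granule genes, Calr was higher by 1.61 and Itgam lower by -0.46 of 3 tested, beside 34 and 28.8% of all genes. Under the first-gate rule 5 were tested, with Calr higher by 1.38 and Itgam (-0.77) and Cd55 (-1.21) lower. The share of all genes under that rule is not given here, so these calls are a description. Between sexes edgeR's quasi-likelihood test passed 0 of 11 (3 at an unadjusted p under 0.05, beside 462 of all 8070 genes).

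The genes whose levels ran most like each member were taken over the 18 sums of 6 classes and 3 mice, among 5287 genes, as Pearson's r of log2(CPM + 1). They share cells, mice and lane, so r is a description. For C3 these were Thbs1 (0.97), Prdx5 (0.97), Mtus1 (0.95), Pygl (0.94) and Cd177 (0.93). For C3ar1 they were Creb5 (0.92), Abca9 (0.92), Ctsb (0.91) and Sdc3 (0.90). For C5ar1 they were Siglece (0.95), Ptgs1 (0.94), Ninj1 (0.91), Clec5a (0.91) and Fcgr4 (0.91), and for Cfp Skap2 (0.94), Asah1 (0.93), Myadm (0.92), Snx20 (0.92) and Reep3 (0.90).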

How the data were processed

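The authors deposited raw UMI counts per gene and cell, made with Cell Ranger (3.1.0 per the file headers) on mm10 (per the labels) and kept in Seurat where a barcode had 200 to 5000 genes and less than 5% mitochondrial counts. They had demultiplexed the cells with HTODemux. The same steps (Seurat 5.3.0, R 4.3.3) applied to the deposited counts of 4395 barcodes and 6 hashtags left 2668 male cells, identical to the deposited ones with 0 differing entries, and 1073 female cells. Barcodes with several hashtags (269) were removed as doublets, and doublets within a mouse were not searched for. A hashtag was taken as a mouse.

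UMIs were summed per mouse and class or state (at least 10 cells a sum), filtered with filterByExpr, normalized by TMM and tested for all genes with edgeR 4.0.16 (glmQLFit, glmQLFTest) and Benjamini-Hochberg adjustment. Shares carry exact binomial limits at 95%, and a count of 0 the limit of 3 counts. Thinning drew 2000 UMIs from each cell and left out cells with fewer. A fold against a group at 0 was computed with 3 counts over that group, without the counting error of the macrophage UMIs. The test was tested on simulated data. Alternatives were RLE factors, no filter, DESeq2 1.42.0, the mouse as block, each mouse left out, library sizes without gate genes, macrophage gates at 1 and 0.25%, no cells over 20000 UMIs, 2 other state rules, a granule split at 3%, female mice and thinning.

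Classes of a mouse come from the same animal, which pairs the sums. Deviations of the same mouse correlated at 0.0284 to 0.0527 between classes, 0.0516 to 0.267 between states and -0.0739 to -0.0101 between neutrophil kinds.

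Genes, gates and lists were chosen with earlier results of these data known. Named besides the members were up to 6 other complement genes a comparison, called and with the largest fold, and the 5 genes most like each member with a mean of at least 20 CPM. Genes that this rule takes but that are not named are not reported here. Gene positions are of GENCODE M21 (GRCm38), and promoters of RefSeq.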

Additional observations from a re-analysis of the deposited data

How the results depend on the processing

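Of 32 tested results 22 passed the threshold, and 14 of these kept direction and call in every alternative, while 0 of the 22 changed direction. Over 433 alternatives 394 kept both. With the mouse as a block 1 of 29 calls changed, C5ar1 between states (0.45, now past the threshold), which also passed without a filter (0.51), with states at 2 UMIs (0.50) and in female mice (0.98). Cfp between macrophages and neutrophils changed sign without cells over 20000 UMIs (-0.038), in female mice (-0.40) and with the first gate (-0.16), C3ar1 between states without a filter (0.0087) and in female mice (0.062), and the Cfp interaction at the 0.25% gate (-0.50). Calls were lost in female mice for C3 against DCs (1.78), B cells (4.18) and T cells (4.18), for Cfp between states (1.52) and for the granule split (C3 -2.20, C5ar1 0.32, Cfp 2.15, from 1 high sum). DESeq2 lost Cfp against DCs (-0.85), C3 against T cells (2.73) and Cfp in the granule split (0.87). Cfp in the granule split was also lost without cells over 20000 UMIs (0.14), with the first gate (0.24) and with it in female mice (0.45), and Cfp between states with states called at 2000 UMIs (0.56). Without a filter Cfp passed between sexes (-0.53, adjusted p = 0.00887). The cause was not tested.

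Leaving out a mouse, the log2 folds ran from -0.25 to 0.30 for Cfp against monocytes, -1.30 to -0.34 for Cfp against DCs, 4.90 to 6.31 for C3 against T cells (a fit against 0 UMIs, like both values of 4.18 in female mice, depends on the prior count and is no bound), -0.14 to 0.0014 for C3ar1 and 1.14 to 1.63 for Cfp between states, 0.88 to 0.94 for Cfp in the granule split, -0.0093 to 0.14 for C3ar1 between sexes and -0.37 to 1.16 for the Cfp interaction. Shares thinned to 2000 UMIs fell to 44.7% (C3ar1), 47.9% (C5ar1) and 16.4% (Cfp) in macrophages, 71.7% (C5ar1) and 11.1% (C3) in neutrophils, 28.4% (C3) and 31.3% (Cfp) in monocytes and 30.8% (Cfp) in DCs.

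Calls over all genes moved from 3594 to 1740 (neutrophils), 1937 to 1080 (DCs), 3445 to 1849 (B cells), 2669 to 1371 (T cells), 559 to 311 (states) and 1349 to 15 (granule split) in female mice, and to 380 in the last with the first gate. Without mouse 3 they were 1381 against monocytes and 1281 against DCs, without 1 mouse 327 to 346 between states, and without male mouse 2 they were 70 in place of 7 between sexes. Without a filter they were 2027 (granule split), 108 (sexes) and 20 (interaction), with states at 2000 UMIs 275, and without cells over 20000 UMIs 837 (granule split). The interaction gave 3 with the block and at most 2 without 1 mouse. Female monocytes, under 10 cells a mouse, gave no value in the fits. At 3 mice and this depth, C3 in macrophages and Cfp in Ccr2-only macrophages rest on 93 and 77 UMIs.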
